A study of Homo sapiens with 24 samples.

Results

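The genes described here are 32 listed genes of synaptic vesicles, vesicle fusion and recycling, and dense-core granules. They were taken by name and not by a cut on their values, though with earlier results of these data known. The names were looked up among 63241 gene identifiers in a table of untreated libraries and 36741 in a table of treated ones. All 32 were found in both. By role they divide into 10 genes of the fusion machinery, 3 synaptotagmins, 6 genes of the vesicle membrane and its clustering, 6 recycling genes and 7 genes of the dense-core granule.

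The study sequenced polyadenylated RNA from 24 libraries labelled SH-SY5Y, a human neuroblastoma line, in 8 groups of 3. The groups were shScramble, the control of a knockdown; shMCART1, the knockdown of MCART1; oeNC, the control of an overexpression; and oeMCART1, the overexpression. Each was left untreated or was given 0.5 mM MPP+ for 24 h. MCART1 is another name of SLC25A51, the carrier that brings NAD+ into mitochondria, and MPP+ is an inhibitor of respiratory complex I used to model loss of dopamine neurons. By its title the study asks how lack of MCART1 bears on cells under that stress. Whether the 3 libraries of a group are separate cultures is in no label, and the p-values cover only how far these libraries differ.

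Neurons keep small transmitters in synaptic vesicles and peptides in dense-core granules. Both fuse with the cell surface through SNARE proteins, which zip together after priming and are triggered by calcium through synaptotagmins. The synaptic vesicle membrane is then retrieved with clathrin, adaptors, membrane-bending proteins and dynamin. Genes of both routes are silenced outside neural and endocrine cells by the repressor REST, which binds RE1 elements, and some granin genes carry a cyclic AMP response element (CRE) that binds CREB proteins.

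The targeted gene followed its labels within each arm. SLC25A51 was at 10.5, 11.1 and 11.2 TPM in untreated shScramble and at 6.91, 9.45 and 5.47 TPM in shMCART1, and at 29.5 to 35.7 TPM in oeNC against 674 to 697 TPM in oeMCART1. With MPP+ it was 6.87 to 8.47 TPM in shScramble, 5.06 to 5.82 TPM in shMCART1, 7.87 to 9.44 TPM in oeNC and 870 to 1008 TPM in oeMCART1. Correlations between replicates lay between 0.970 and 0.988. Of 14 markers of adrenergic neuroblastoma, 6 stayed below 1 TPM in every library and 5 reached it in every library. TH, the rate-limiting enzyme of dopamine synthesis, was listed at 0 in 23 of 24 libraries. The summed level of those markers ran from 29.6 to 62.0 TPM, against 352 to 693 TPM for 10 mesenchymal or fibroblast markers, led by VIM. For 10 blood and marrow markers the sum was 11.6 to 52.9 TPM, and for 6 glial ones 2.02 to 9.14 TPM. The growth protocol names HEK293T beside SH-SY5Y, and the tissue label reads bone marrow. Markers that define the labelled line, TH among them, were thus in part absent or nearly so. Its name is used below only as the label.

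The promoters of 3 members are shown because the members that moved most include granins and because these 3 carry the CRE. CHGA encodes chromogranin A, the main granule matrix protein, and was tested in both tables. VGF encodes another granin-like peptide precursor, and stayed below 1 TPM in every library. SYN1 encodes synapsin I, which tethers vesicles to the cytoskeleton, and is a classic REST target. Each window holds the 250 bases before the RefSeq start on GRCh38.p14, with the CRE in capitals and, in SYN1 alone, a match to RE1 also in capitals, upstream of the CRE. The windows are chr14:92922900-92923149 on the plus strand for CHGA, chr7:101165570-101165819 on the minus strand for VGF, and chrX:47619858-47620107 on the minus strand for SYN1.
CHGA: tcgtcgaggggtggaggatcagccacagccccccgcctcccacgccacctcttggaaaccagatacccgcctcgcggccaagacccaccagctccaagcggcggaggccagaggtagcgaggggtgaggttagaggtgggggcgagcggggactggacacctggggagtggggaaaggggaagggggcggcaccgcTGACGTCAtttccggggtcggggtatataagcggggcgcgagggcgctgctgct
VGF: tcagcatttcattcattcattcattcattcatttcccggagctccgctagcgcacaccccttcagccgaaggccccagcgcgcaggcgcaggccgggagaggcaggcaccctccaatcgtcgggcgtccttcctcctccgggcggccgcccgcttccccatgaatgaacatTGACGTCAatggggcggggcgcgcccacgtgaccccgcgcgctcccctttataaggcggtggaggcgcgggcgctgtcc
SYN1: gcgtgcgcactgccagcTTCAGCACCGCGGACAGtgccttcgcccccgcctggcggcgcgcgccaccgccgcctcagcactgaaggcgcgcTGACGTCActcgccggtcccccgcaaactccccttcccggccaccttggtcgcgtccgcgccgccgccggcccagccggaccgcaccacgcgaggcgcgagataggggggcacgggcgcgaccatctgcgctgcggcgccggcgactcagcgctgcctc

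The CRE, searched as TGACGTCA on both strands, starts 54 bases before the start of CHGA, 79 before that of VGF and 159 before that of SYN1. RefSeq windows of 300 bases, from 250 before the start to 50 after it, were matched for 27 of the 32 members, with 34 entries. CHGB, SCG2, SNAP25, CPLX1 and SYNGR3 had no entry and were not searched. The CRE was in 6 entries of 5 members (CHGA, VGF, SYN1, CLTB and SH3GL2), or 17.6% of entries, against 1.85% of 35116 promoters. The shorter TGACG, which every CRE also contains, was in 47.1% of member entries and 24.6% of all. Among the members searched, RE1 matched SYN1 alone, 233 to 217 bases before its start, and it matched 0.0683% of all promoters. RE1 was searched after the values had been seen. Levels differed among the 5 carriers of the CRE: VGF was nearly silent and CLTB was the most abundant member. The changes of the carriers are given below, and the part of the CRE in them was not tested.

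TPM corrects for transcript length, so levels can be set between genes. CLTB, a clathrin light chain, was highest, at 82.2 to 133 TPM with a median of 108. It was followed by SYNGR1, a synaptogyrin of the vesicle membrane, at a mean of 36.9 TPM. NSF, the ATPase that takes spent SNARE complexes apart, had a mean of 28.2 TPM, VAMP2, the vesicle SNARE, 25.8 TPM, and SYP, synaptophysin, 25.1 TPM. BIN1, a membrane-bending amphiphysin, had 21.4 TPM, and PCSK1N, an inhibitor of a prohormone convertase, 19.6 TPM. These means are over all 24 libraries, and neighbours in this order overlapped in range from SYNGR1 downward.

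At the other end, 7 members did not reach 1 TPM in any library, and they include core parts of regulated release. SNAP25, the plasma membrane SNARE of neurons, lay between 0.010 and 0.19 TPM. CPLX2, a complexin that clamps SNARE complexes, reached 0.21 TPM, and SYT11, a synaptotagmin without calcium binding, 0.49 TPM. SCG2, secretogranin II, reached 0.27 TPM and VGF 0.86 TPM. CADPS, which primes dense-core granules, was listed at 0 in 20 of 24 libraries, and SYT4 in 23 of 24. The libraries thus held the vesicle SNARE VAMP2 at 19.7 to 34.9 TPM with its plasma membrane partner SNAP25 near 0, while STX1A, the other partner, lay between 5.06 and 11.4 TPM.

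General relatives of the low or neuronal members were more abundant; they were chosen after the values had been seen. SNAP23, the SNAP25 relative of most cell types, had a median of 25.5 TPM, VAMP3 42.5 TPM and STX4 47.2 TPM. DNM2, the ubiquitous dynamin, had 83.8 TPM, against a mean of 11.8 TPM for DNM1, its neuronal relative. CLTA had 210 TPM and NAPA, the general partner of NSF, 72.6 TPM, against 3.48 TPM for NAPB. CADPS2 stood at 2.58 TPM and SYT7 at 2.56 TPM.

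Between those ends, CHGB (chromogranin B), SCG3 (secretogranin III, which helps sort granins) and UNC13A (a priming factor for synaptic vesicles) reached 1 TPM only in the treated table. In all, 18 members reached 1 TPM in every library. A test was run for members with at least 1 TPM in 3 libraries of a table, which left 22 of 32 in the untreated and 25 in the treated table. Those 3 genes are the difference between the tables, and they entered through the groups in which they were high.

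**Figure D1:**
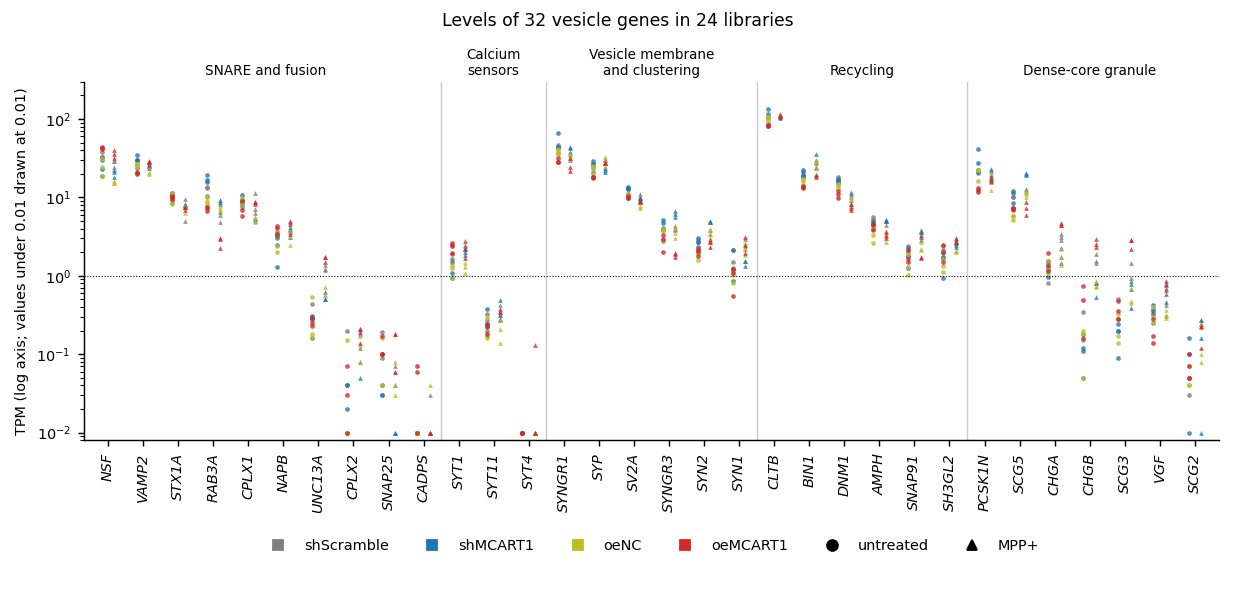
TPM of each of the 32 vesicle genes (log axis) in 24 libraries, circles untreated and triangles with MPP+, coloured by group; the dotted line marks 1 TPM. CLTB lies near 105 TPM and 7 members stay below 1 TPM in every library, among them SNAP25, CADPS and SYT4.

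The first comparison asks what knockdown did to vesicle genes in untreated cells: 2 of 22 members rose and 2 fell. RAB3A and VAMP2 were higher in shMCART1, and NSF and SYT1 were lower, of which SYT1 turned its sign once the GC trend was removed. RAB3A, the small GTPase that sits on secretory vesicles, was 13.6, 10.5 and 13.0 TPM in shScramble and 16.6, 15.8 and 19.4 TPM in shMCART1. All 3 knockdown libraries lay above all 3 controls, with a log2 change of 0.45 ± 0.12 (SE; on log2(TPM + 1), as everywhere below, which understates changes of low genes) and an adjusted p of 0.0221. VAMP2 was 29.1, 23.9 and 25.6 TPM against 29.8, 30.2 and 34.9 TPM, a log2 change of 0.26 ± 0.09 (adjusted p = 0.0488). NSF was 32.6, 38.3 and 33.1 TPM in shScramble and 22.7, 30.3 and 18.9 TPM in shMCART1, lower by a log2 change of -0.54 ± 0.18 (adjusted p = 0.0394). The groups did not overlap for either gene. SYT1, the calcium sensor of fast release, was 1.87, 2.45 and 1.63 TPM in shScramble and 1.07, 1.51 and 0.94 TPM in shMCART1 (log2 change -0.46 ± 0.16, adjusted p = 0.0429), and 0.11 with each library's trend on GC content removed.

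The shares of all 14703 genes tested that were called stood at 8.64% higher and 25.6% lower, so the 2 and 2 of 22 members are close to or below the background. The median log2 change of the 22 members was 0.15, beside -0.15 over all genes. The 18 members without a call ranged from -0.39 for NAPB to 0.39 for PCSK1N. The summed adrenergic markers were 51.9 to 57.2 TPM in these shScramble libraries and 58.3 to 62.0 TPM in shMCART1, and the mesenchymal ones 446 to 470 TPM and 360 to 429 TPM; their part in the result was not tested. In bulk RNA, fewer cells of a type and less RNA per cell cannot be told apart. None of the 4 calls held under every alternative: all 4 ended in a fit of the 2 groups alone, with no filter on low values, and without shMCART1 replicate 1, shMCART1 replicate 3 or shScramble replicate 2. Without shMCART1 replicate 2, 4 were higher, without shScramble replicate 1, 0 were lower, and without shScramble replicate 3, 1 was higher and 1 lower. Scaling by median of ratios gave 7 higher and 0 lower, the median over all genes going from -0.15 to 0.02, and removal of the GC trend gave 1 and 0.

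Overexpression in untreated cells gave 2 members higher and 6 lower of 22. NSF and SYT1 were higher in oeMCART1, and PCSK1N, SYNGR1, DNM1, VAMP2, SYP and CLTB were lower; with the GC trend removed SYT1 and CLTB turned their signs. NSF was 18.8, 30.8 and 24.3 TPM in oeNC and 41.1, 44.3 and 42.8 TPM in oeMCART1, a log2 change of 0.80 ± 0.18 (adjusted p = 0.00637). The 3 oeMCART1 libraries were close to each other and above every control. SYT1 rose from 1.19 ± 0.23 to 2.34 ± 0.33 TPM (SD, n = 3; log2 change 0.61 ± 0.16, adjusted p = 0.00977 by limma), against -0.07 with the GC trend removed.

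Among the members that fell, PCSK1N was 22.6, 16.1 and 22.4 TPM in oeNC and 13.3, 12.3 and 11.7 TPM in oeMCART1 (log2 change -0.66 ± 0.20, adjusted p = 0.0197). SYNGR1 fell from 41.0, 36.0 and 39.4 TPM to 28.3, 31.4 and 27.9 TPM (-0.40 ± 0.15, adjusted p = 0.0431). DNM1, the dynamin that pinches off retrieved vesicles, fell from 14.8, 13.4 and 14.4 TPM to 11.9, 9.71 and 10.9 TPM (-0.36 ± 0.10, adjusted p = 0.0147). Every library of oeMCART1 was below every control for these 3 genes. VAMP2 fell from 26.5, 25.1 and 26.9 TPM to 20.3, 21.1 and 19.7 TPM (-0.35 ± 0.09, adjusted p = 0.0126). SYP fell from 24.9, 20.1 and 23.6 TPM to 18.5, 17.5 and 18.1 TPM (-0.32 ± 0.10, adjusted p = 0.0203). CLTB was 105, 93.4 and 105 TPM against 83.6, 82.2 and 82.6 TPM, a log2 change of -0.28 that became 0.03 with the GC trend removed.

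Of all genes 33.5% were called higher and 14.7% lower, beside 2 and 6 of 22 members. The median log2 change of members was -0.07, beside 0.16 over all genes. NSF and VAMP2 kept their calls under every alternative, and the other 6 lost theirs under at least 1. Leaving out oeNC replicate 1 or oeMCART1 replicate 2 left 1 member lower, oeNC replicate 3 or oeMCART1 replicate 3 left 2, and leaving out oeNC replicate 2 gave 4 higher. Without oeMCART1 replicate 1, CLTB and SYNGR1 lost their calls. Removing the GC trend left 1 higher and 1 lower, beside 8.45% and 7.92% of all genes, and median-of-ratios scaling gave 2 and 10, beside 26.2% and 26.1%. The share of members higher was below the background in all 3 of these fits, and the share lower was above it except with the GC trend removed.

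In knockdown with MPP+, 6 members rose and 7 fell of 25, beside 33.1% of all genes called in either direction. The 6 were SCG5, RAB3A, SYNGR3, SYN2, SYNGR1 and BIN1, and the 7 were CHGB, CHGA, CPLX1, UNC13A, SYN1, NSF and SYP. Among called members, UNC13A and CHGB had the lowest ratios of mean TPM, at 0.430 and 0.435. Members under 5 TPM, among them the granins CHGA and CHGB, UNC13A, SCG3, SYN1, SYN2, SYT1 and SH3GL2, and CLTB for the size of its change, fell outside the rule for named genes and were chosen after their values were seen.

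Of the dense-core genes, CHGB (chromosome 20, 5911430 to 5925361, GRCh38) was 1.53, 1.47 and 1.92 TPM in treated shScramble and 0.80, 0.54 and 0.80 TPM in shMCART1. The mean ratio was 0.435 and the log2 change -0.62 ± 0.13 (adjusted p = 0.00338). CHGA (chromosome 14, 92923080 to 92935293) was 2.88, 3.11 and 3.39 TPM against 2.28, 1.76 and 1.44 TPM (-0.55 ± 0.13, adjusted p = 0.00859). Each knockdown library lay below each control for both chromogranins. SCG3 had the same sign without a call (-0.36 ± 0.16, adjusted p = 0.104). SCG5, the 7B2 chaperone of a prohormone convertase (chromosome 15, 32641676 to 32697098), went the other way. It was 12.3, 11.8 and 12.6 TPM in shScramble and 20.0, 19.1 and 20.3 TPM in shMCART1 (0.65 ± 0.10, adjusted p = 0.000973). PCSK1N was 16.8 ± 1.3 and 21.4 ± 2.1 TPM (SD, n = 3) and was not called (adjusted p = 0.0982 by limma). The granule list therefore held 2 members lower, 1 higher and 2 without a call among the 5 tested.

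Of the fusion genes, CPLX1, the complexin that did reach 1 TPM, was 6.41, 7.20 and 11.5 TPM in shScramble and 5.46, 4.95 and 5.25 TPM in shMCART1 (-0.55 ± 0.15, adjusted p = 0.017). One control, shScramble replicate 3, stood well above the other two. The log2 change without it was -0.33. UNC13A (chromosome 19, 17601328 to 17688365) was 1.36, 1.23 and 1.18 TPM against 0.50, 0.50 and 0.62 TPM (-0.55 ± 0.12, adjusted p = 0.00416). NSF was 24.7, 28.8 and 28.9 TPM against 21.4, 18.4 and 22.1 TPM (-0.40 ± 0.09, adjusted p = 0.00788). RAB3A (chromosome 19, 18196784 to 18204074) was again higher in shMCART1, at 9.34, 8.19 and 8.81 TPM against 6.43, 4.80 and 5.93 TPM (0.55 ± 0.11, adjusted p = 0.00405). SYT1 and VAMP2 were not called, at log2 changes of -0.16 ± 0.13 and -0.17 ± 0.08.

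The vesicle membrane genes split. SYP was 30.2, 27.5 and 30.6 TPM in shScramble and 21.1, 23.4 and 22.7 TPM in shMCART1, lower in every library (-0.38 ± 0.08, adjusted p = 0.00511). SYN1 fell from 2.41, 2.18 and 2.98 TPM to 1.55, 1.56 and 1.35 TPM (-0.50 ± 0.14, adjusted p = 0.0206), while its relative SYN2 rose from 3.42, 3.81 and 2.71 TPM to 4.85, 4.99 and 4.80 TPM (0.46 ± 0.12, adjusted p = 0.0115). Both synaptogyrins rose, SYNGR3 from 3.90, 3.83 and 4.31 TPM to 5.69, 6.68 and 6.08 TPM (0.51 ± 0.10, adjusted p = 0.00348), and SYNGR1 from 29.7, 31.5 and 35.6 TPM to 43.6, 42.9 and 38.0 TPM (0.36 ± 0.12, adjusted p = 0.0374). Of 6 recycling genes, BIN1 rose, from 27.4, 23.5 and 24.2 TPM to 28.5, 35.4 and 30.0 TPM (0.31 ± 0.10, adjusted p = 0.0314), and the other 5 were not called, with log2 changes between -0.20 and 0.08.

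Of all 14895 genes tested 10.8% were called higher and 22.2% lower, beside 6 and 7 of 25 members. CHGB and UNC13A, among the 7, passed the filter only through groups in which they were high. The median log2 change of members was -0.15, and that of all genes -0.08. CHGA, CHGB, UNC13A, SYP, RAB3A, SCG5 and SYNGR3 kept their calls under every alternative that tested them, and 6 of the 13 did not. Among these, BIN1 lost its call without shMCART1 replicate 2, shScramble replicate 2 or shScramble replicate 3, and SYN2 without shScramble replicate 3. CPLX1 lost it without shMCART1 replicate 2, SYN1 without shScramble replicate 3 or shMCART1 replicate 3, and SYNGR1 without either of replicates 1 and 2 of both groups.

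**Figure D2:**
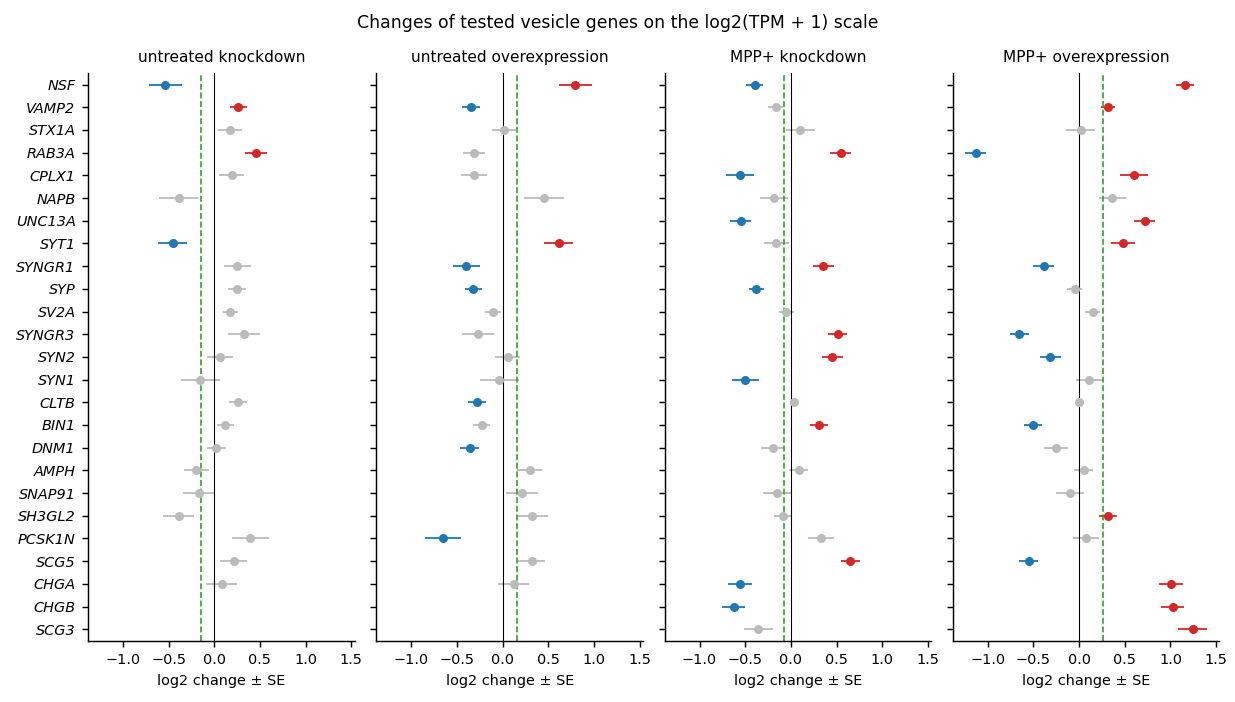
Log2 change (± SE) of the vesicle genes tested in 4 comparisons, red where called higher, blue where called lower and grey where not called; the dashed green line is the median of all genes tested. CHGA, CHGB, UNC13A and CPLX1 lie left of 0 in knockdown and right of 0 in overexpression with MPP+, and RAB3A, SCG5 and SYNGR3 the reverse. CHGB and UNC13A passed the filter only through treated shScramble and oeMCART1, where they were high.

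In overexpression with MPP+, 9 members rose and 6 fell of 25, and these 15 are about the same share as the 60.9% of all genes called in either direction. The granins CHGA, CHGB and SCG3 rose 2.55-fold to 4.93-fold in mean TPM, NSF 2.32-fold and UNC13A 2.70-fold. RAB3A fell to a ratio of 0.382 and SYNGR3 to 0.528. CPLX1, SYT1, VAMP2 and SH3GL2 were also higher, of which SYT1 turned its sign with the GC trend removed and VAMP2 under median-of-ratios scaling. SCG5, BIN1, SYNGR1 and SYN2 were also lower.

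SCG3 (chromosome 15, 51681353 to 51721031) was 0.69, 0.47 and 0.45 TPM in treated oeNC and 2.89, 2.86 and 2.19 TPM in oeMCART1, a log2 change of 1.24 ± 0.16 (adjusted p = 3.84e-05). CHGB was 0.74, 0.72 and 0.86 TPM against 2.57, 2.32 and 2.95 TPM (1.02 ± 0.13, adjusted p = 2.93e-05). CHGA was 1.39, 1.76 and 2.18 TPM against 4.41, 4.73 and 4.45 TPM (1.00 ± 0.13, adjusted p = 5.51e-05). All 3 granins were far from overlapping between the groups, though they remained below 5 TPM. Of these, SCG3 and CHGB passed the filter only through groups in which they were high, oeMCART1 among them. VGF, in which the CRE also stands, had 0.37, 0.29 and 0.31 TPM in oeNC and 0.65, 0.86 and 0.77 TPM in oeMCART1 and was below the filter. SCG2, at 0.24, 0.10 and 0.080 TPM against 0.23, 0.12 and 0.22 TPM, was too. SCG5 was lower, at 10.3, 11.2 and 12.1 TPM in oeNC and 6.03, 8.71 and 7.31 TPM in oeMCART1 (-0.55 ± 0.10, adjusted p = 0.000656). PCSK1N was 16.5 ± 4.2 and 17.2 ± 0.76 TPM (SD, n = 3) and was not called. The granule genes thus did not move as 1 block.

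NSF (chromosome 17, 46590669 to 46757464) had 15.2, 16.3 and 15.3 TPM in oeNC and 40.4, 36.0 and 32.3 TPM in oeMCART1 (1.16 ± 0.09, adjusted p = 2.26e-06). Its near-identical copy NSFP1 was listed at 2.12 to 7.23 TPM over the 24 libraries, and how reads were divided between them is not given in the sources used here. UNC13A was 0.57, 0.57 and 0.71 TPM against 1.76, 1.48 and 1.75 TPM (0.72 ± 0.12, adjusted p = 0.000213). CPLX1 was 4.90, 5.63 and 5.48 TPM against 8.76, 8.77 and 8.23 TPM (0.60 ± 0.15, adjusted p = 0.00517). In each of these fusion genes all oeMCART1 libraries were above all controls. UNC13A passed the filter only through groups in which it was high. VAMP2 was 20.9, 20.0 and 25.3 TPM against 28.2, 25.8 and 28.8 TPM (0.32 ± 0.08, adjusted p = 0.0051), a rise that was gone, at -0.00135, under median-of-ratios scaling. SYT1 was 1.31, 1.46 and 1.07 TPM against 2.74, 2.21 and 1.67 TPM (0.48 ± 0.13, adjusted p = 0.00808), and -0.16 with the GC trend removed.

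RAB3A was 7.66, 6.92 and 7.12 TPM in oeNC and 2.98, 2.26 and 3.06 TPM in oeMCART1, the largest fall among members (-1.13 ± 0.11, adjusted p = 7.63e-06). An exon of MPV17L2 overlaps RAB3A on the opposite strand. Of the membrane genes, SYNGR3 fell from 3.53, 3.05 and 4.04 TPM to 1.98, 1.90 and 1.73 TPM (-0.66 ± 0.10, adjusted p = 0.000186), and SYNGR1 from 35.3, 31.7 and 34.4 TPM to 21.6, 24.3 and 31.6 TPM (-0.39 ± 0.12, adjusted p = 0.0131). SYN2 was at 3.50 ± 0.46 and 2.61 ± 0.24 TPM (SD, n = 3; -0.32 ± 0.12, adjusted p = 0.034 by limma). SYN1, SYP and SV2A were not called, at log2 changes of 0.11, -0.05 and 0.15. In recycling, BIN1 fell from 29.7, 28.5 and 23.7 TPM to 18.1, 19.4 and 19.2 TPM (-0.50 ± 0.10, adjusted p = 0.0009), and SH3GL2, endophilin A1, rose from 2, 2.07 and 2.05 TPM to 2.64, 3.07 and 2.68 TPM (0.32 ± 0.10, adjusted p = 0.0128). CLTB, DNM1, AMPH and SNAP91 were not called, with log2 changes from -0.26 to 0.05.

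Marker sums differed between these groups too. The 14 adrenergic markers summed to 40.5 to 48.9 TPM in treated oeNC and 29.6 to 32.4 TPM in oeMCART1, the 10 blood markers to 22.8 to 29.9 TPM and 11.6 to 17.2 TPM, and the 6 glial markers to 3.62 to 5.15 TPM and 2.02 to 2.53 TPM. In treated shScramble and shMCART1 the adrenergic sums were 40.0 to 42.8 TPM and 50.6 to 51.2 TPM, and the mesenchymal ones 563 to 593 TPM and 646 to 693 TPM. Their part in the changes of vesicle genes was not tested.

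Here 46.7% of all genes were called higher and 14.2% lower, and the median over all genes was 0.26, beside 0.08 for the 25 members. The 9 of 25 members higher are a smaller share than the background here. With the GC trend removed 9 members were again higher beside 25.8% of all genes, a larger share. SCG3, CHGB and UNC13A are in both counts and passed the filter only through groups in which they were high. The shares are therefore described and not tested. Median-of-ratios scaling moved the median of all genes to -0.01 and gave 5 members higher and 9 lower, beside 26.6% and 29.3% of all genes. CHGA, CHGB, SCG3, UNC13A, NSF, RAB3A, SCG5, SYNGR3 and BIN1 were called the same way under every alternative that tested them. With the GC trend removed, their log2 changes were 1.15, 0.86, 0.60, 0.66, 0.64, -1.05, -0.96, -0.43 and -0.35 in that order. SYN2 lost its call without oeMCART1 or oeNC replicate 1 or 2, SYNGR1 without oeMCART1 replicate 1, and SH3GL2 without oeMCART1 replicate 2.

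**Figure D3:**
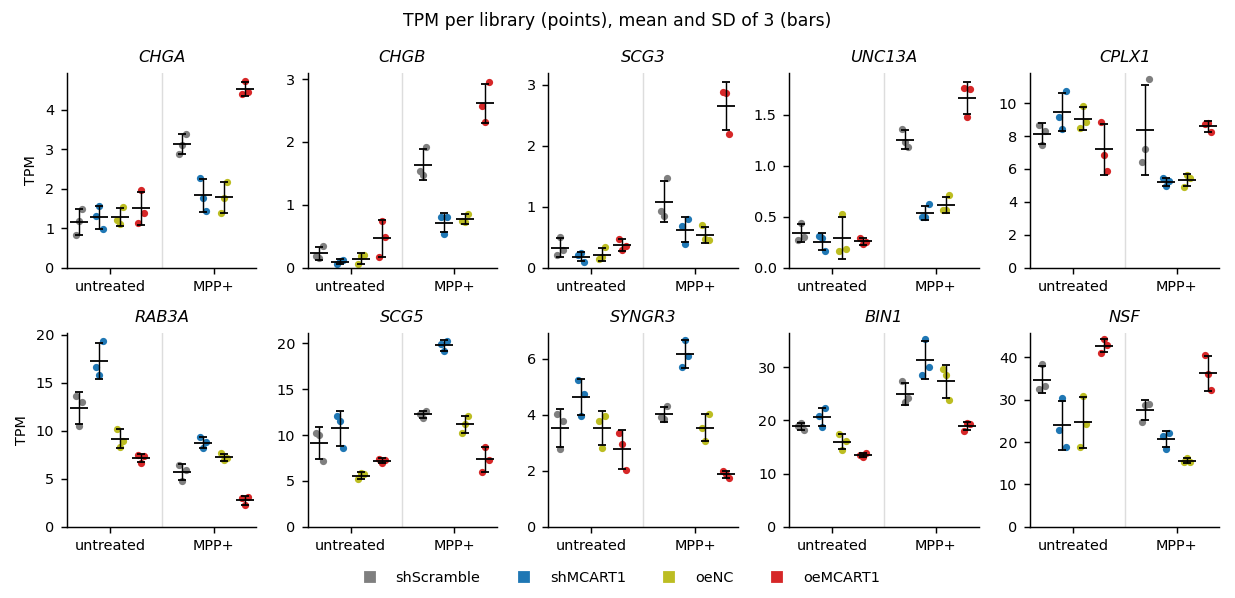
TPM of 10 vesicle genes in each library (points), with mean and SD of 3 (bars), for 4 untreated groups at the left and 4 groups with MPP+ at the right of each panel, coloured as in the legend. The treated oeMCART1 libraries are highest for CHGA, at 4.41 to 4.73 TPM, and lowest for RAB3A, at 2.26 to 3.06 TPM.

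Knockdown and overexpression share no library, so their calls can be set against each other. Those calls are not independent, since the 4 groups of a table share an estimate of the spread. With MPP+, 11 members were called in both, which is 84.6% of the 13 called in knockdown and 73.3% of the 15 called in overexpression. All 11 went in opposite directions: CHGA, CHGB, UNC13A, CPLX1 and NSF fell in knockdown and rose in overexpression, and RAB3A, SCG5, SYNGR3, SYNGR1, SYN2 and BIN1 did the reverse. CHGB and UNC13A passed the filter only through treated shScramble and oeMCART1, where they were high, and that favours this pattern in advance. Both are also in the counts below with the GC trend removed and with median-of-ratios scaling. Over all genes, 82.8% of knockdown calls and 45.0% of overexpression calls were shared, and 95.8% of the shared ones were opposite. The opposition is thus general in these tables and not particular to vesicle genes. After the GC trend was removed 8 members were called in both, all 8 opposite, beside 93.9% of all genes called in both. Median-of-ratios scaling gave 11 called in both and 10 opposite, SYP being lower in both. In untreated libraries 3 members were called in both, VAMP2, NSF and SYT1, all opposite, beside 99.8% of all genes.

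**Figure D4:**
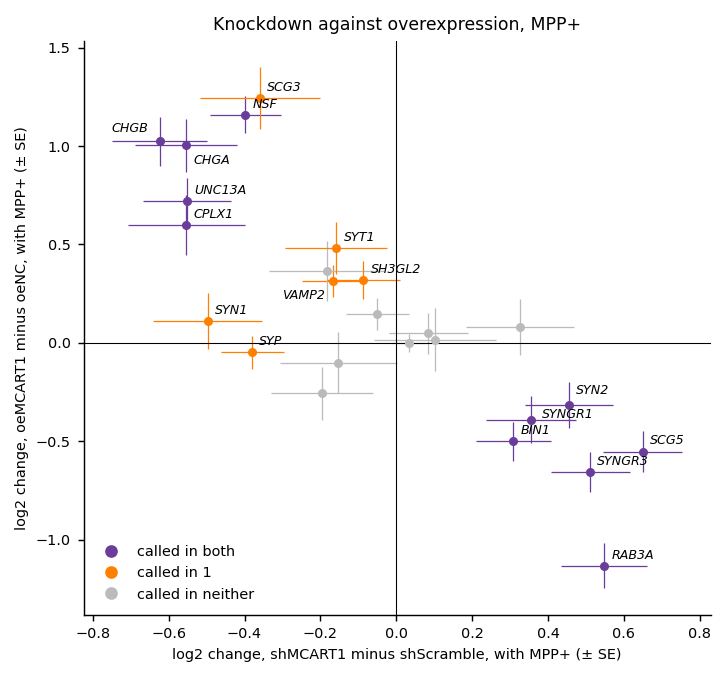
Log2 change (± SE) of 25 vesicle genes with MPP+, knockdown on the x axis and overexpression on the y axis, purple where called in both, orange in 1 and grey in neither. The 11 genes called in both lie in the upper left, such as CHGB at -0.62 and 1.02, or the lower right, such as RAB3A at 0.55 and -1.13. CHGB and UNC13A passed the filter only through treated shScramble and oeMCART1, where they were high.

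The 2 controls were compared with each other, since they set the base of each arm. Untreated oeNC and shScramble gave 0 calls among 22 members by limma, with 7 at an unadjusted p under 0.05, beside 0.197% of genes higher and 1.09% lower. The lowest was SCG5, at 5.17, 5.87 and 5.73 TPM in oeNC and 10.2, 10.0 and 7.18 TPM in shScramble (log2 change -0.61 ± 0.15, adjusted p = 0.0572). With the replicate block 5 members were called lower, and without oeNC replicate 2, 3 were.

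With MPP+, 1 member was higher and 12 were lower in oeNC than in shScramble, beside 5.13% and 42.8% of all genes. The median was -0.30 for members and -0.25 for all genes. NSF differed most (-0.78 ± 0.09, adjusted p = 0.000126), then CHGA (-0.58 ± 0.13, adjusted p = 0.00419), CHGB (-0.57 ± 0.13, adjusted p = 0.00313) and SYT1 (-0.57 ± 0.13, adjusted p = 0.00472). The other 8 lower were CPLX1, SNAP91, UNC13A, AMPH, SCG3, VAMP2, SH3GL2 and SV2A, from -0.53 to -0.30, of which SCG3 turned to 0.09 with the GC trend removed. RAB3A was higher, by 0.30 ± 0.11 (adjusted p = 0.0478), and lost its call without any of the 3 oeNC libraries or without shScramble replicate 2 or 3. Of these 13 calls, CHGB, NSF and UNC13A held under every alternative. CHGB, UNC13A and SCG3 passed the filter only through groups in which they were high. With median-of-ratios scaling CHGA, AMPH and VAMP2 lost theirs, at -0.36, -0.21 and -0.02, and with the GC trend removed SYT1 did, at -0.05. SCG3 and SNAP91 lost their calls without oeNC replicate 2 or 3 or shScramble replicate 3, SH3GL2 and SV2A without that shScramble library, and CPLX1 stood at -0.30 without it. Scaling by median of ratios gave 5 higher and 4 lower. CHGA therefore had a mean of 3.13 TPM in shScramble and 1.78 TPM in oeNC, with 1.83 TPM in shMCART1, and UNC13A 1.26, 0.617 and 0.540 TPM in the same order. These comparisons share their controls with the ones above.

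The treated and untreated libraries were deposited in separate tables with different sets of identifiers, so levels with and without MPP+ are only set side by side. CHGB had means of 0.223 and 1.64 TPM in shScramble without and with MPP+, 0.0933 and 0.713 in shMCART1, 0.143 and 0.773 in oeNC, and 0.463 and 2.61 in oeMCART1. UNC13A had 0.337 and 1.26 TPM, 0.253 and 0.540, 0.290 and 0.617, and 0.257 and 1.66 in the same order of groups. For both genes the treated level was the larger one in all 4 pairs. CHGB and UNC13A are among the members that reached 1 TPM only in the treated table, so that direction was partly given in advance. RAB3A had the smaller level with MPP+ in all 4, at 12.4 and 5.72 TPM, 17.3 and 8.78, 9.17 and 7.23, and 7.18 and 2.77. STX1A had 9.58 and 7.52 TPM in shScramble and 10.1 and 7.36 TPM in oeMCART1. No test was run across the tables.

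Whether an arm's change differed between the tables was tested as a difference of 2 changes, each taken within its table. For overexpression, the change of 6 of 25 members was more positive with MPP+ and that of 2 more negative, beside 12.6% and 5.24% of 15653 genes. SCG3 differed by 1.07 ± 0.20 (adjusted p = 0.000937), CPLX1 by 0.91 ± 0.21 (adjusted p = 0.00508), CHGA by 0.88 ± 0.21 (adjusted p = 0.00668) and UNC13A by 0.75 ± 0.16 (adjusted p = 0.00313). CHGB differed by 0.69 ± 0.19 (adjusted p = 0.0164) and VAMP2 by 0.66 ± 0.12 (adjusted p = 0.000835). For CHGA the untreated change was 0.12 ± 0.17 and that with MPP+ 1.00 ± 0.13. VAMP2 had a change of -0.35 in untreated cells and 0.32 with MPP+, the latter -0.00135 under median-of-ratios scaling. SCG5 differed by -0.87 ± 0.18 (adjusted p = 0.00228), between 0.32 untreated and -0.55 with MPP+, and RAB3A by -0.82 ± 0.17 (adjusted p = 0.00172). NSF rose in both and its difference was not called (0.36 ± 0.21, adjusted p = 0.277). The median difference was 0.10 for members and 0.05 for all genes. CHGB lost its call without untreated oeMCART1 replicate 1 (0.53), under median-of-ratios scaling (0.55) and with a pseudocount of 0.1 (0.51). SCG3, UNC13A and CHGB were below 1 TPM in every untreated library and passed the filter only through the treated groups in which they were high.

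For knockdown, the change of 0 of 25 members was more positive with MPP+ and that of 1 more negative, beside 1.72% and 2.15% of genes, and 8 were at an unadjusted p under 0.05. SYP was that 1. Its change was 0.24 ± 0.10 in untreated cells and -0.38 ± 0.08 with MPP+, a difference of -0.62 ± 0.13 (adjusted p = 0.00995). SYP was called under every alternative run. CPLX1 (-0.74 ± 0.21, adjusted p = 0.0557) and VAMP2 (-0.43 ± 0.12, adjusted p = 0.0514) were not called. Without untreated shMCART1 replicate 2, 4 members were called lower, and without shScramble replicate 1, untreated or treated, 2 were. The median difference was -0.07 for members and 0.08 for all genes.

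GC content ran with the changes. Over all genes, Spearman's rho between log2 change and transcript GC content was 0.777 in untreated knockdown, -0.801 in untreated overexpression, 0.484 in knockdown with MPP+ and -0.603 in overexpression with MPP+. Over the members it was 0.691 and -0.708 (22 genes), and 0.148 and -0.325 (25 genes). Genes of a comparison share their libraries, and these values describe them without a test. The median GC content of tested members was 57.0% in the untreated and 55.3% in the treated table, beside 50.2% and 50.3% of all tested genes with a value. With each library's GC trend removed, 1 member was higher and 0 lower in untreated knockdown and 1 and 1 in untreated overexpression, against 4 and 6 in knockdown and 9 and 6 in overexpression with MPP+.

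The summed level of the 32 members gives their share of the RNA. It was 358 ± 20 TPM in untreated shScramble, 404 ± 35 in shMCART1, 328 ± 10.0 in oeNC and 295 ± 3.1 in oeMCART1 (SD, n = 3). With MPP+ it was 358 ± 11, 368 ± 9.1, 329 ± 9.2 and 341 ± 3.9 TPM. Fusion genes together summed to 82.8 ± 6.1 TPM in treated shScramble, 71.6 ± 3.6 in shMCART1, 61.5 ± 2.6 in oeNC and 88.8 ± 4.7 in oeMCART1, led by NSF and VAMP2. Dense-core genes stood at 35.7 ± 1.6, 45.1 ± 2.0, 31.3 ± 5.3 and 35.3 ± 0.66 TPM in that order, led by PCSK1N and SCG5, so their sum hardly shows the granins.

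A wider list of 97 other genes of docking, vesicle membrane, recycling, granules and peptide cargo was read the same way. Of these, 66 were tested in each table and 25 stayed below 1 TPM in every library. In untreated libraries 13 were higher and 14 lower with knockdown, beside 8.64% and 25.6% of all genes, and 18 and 15 with overexpression, beside 33.5% and 14.7%. With MPP+ the counts were 11 and 11 with knockdown, beside 10.8% and 22.2%, and 28 and 17 with overexpression, beside 46.7% and 14.2%. The medians with MPP+ were -0.01 in knockdown and 0.16 in overexpression, beside -0.08 and 0.26 for all genes.

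CLTC, the clathrin heavy chain, led the wider list in overexpression. It was 27.9, 27.1 and 20.0 TPM in treated oeNC and 69.7, 64.8 and 55.1 TPM in oeMCART1 (log2 change 1.31 ± 0.12), while its light chain CLTB stood at -0.00 ± 0.05. In untreated libraries CLTC had 1.11 with overexpression and -0.86 with knockdown. TAC1, the substance P precursor and the peptide cargo with the largest change, was 6.02, 5.29 and 5.16 TPM in treated oeNC and 14.0, 12.8 and 11.5 TPM in oeMCART1 (1.08 ± 0.13), and fell with knockdown by 0.77 on the log2 scale. AAK1, the kinase of a clathrin adaptor, rose by 0.99. The granule enzymes CPE (0.75) and PAM (0.66), which trim and amidate peptides, were also higher in treated oeMCART1. Both fell outside the rule for named genes. Of 5 granule genes of this list tested there, 3 were higher and 2 lower, with log2 changes down to -0.83, beside 46.7% and 14.2% of all genes. FCHO1 (-1.19), an early endocytic protein, DOC2A (-1.11), a calcium sensor, and PPFIA3 (-1.02), a liprin of the release site, fell. In knockdown with MPP+, SH3GL3 (-0.76) and AP3B2 (-0.67) fell beside TAC1, and FCHO1 (0.49), HID1 (0.47) and PPFIA3 (0.45) rose. Transcript GC content was 41.7% for CLTC, 41.3% for TAC1, 50.4% for AAK1 and 46.1% for CPE and PAM. It was 60.8% for FCHO1, 61.6% for DOC2A, 63.8% for PPFIA3 and 63.0% for CLTB. The alternatives were read for members only, so changes of the wider list were not checked with the GC trend removed.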

How the data were processed

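Polyadenylated RNA of 24 libraries was made into strand-specific libraries, per the labels' protocols. The authors deposited TPM, which set each library to one total, in 1 table of 12 untreated and 1 of 12 treated libraries. Per the submitters' processing notes, builds GRCm38, mm10 and GRCh38 were named without a role; for aligner, annotation and strand use, nothing is given in the sources used here. Reads of genes that overlap on opposite strands (SYP, SYN1, SYN2, SYT1, STX1A, RAB3A, SCG5, DNM1) may therefore be mixed. TPM keep no depth, so no counting interval can be given.

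Entries without an identifier (25 and 42) were left out. The tables share 31524 identifiers, 85.8% of the smaller. Genes with at least 1 TPM in 3 libraries of a table were tested on log2(TPM + 1) by limma 3.58.1 (R 4.3.3, trended empirical Bayes, two-sided) fitting the 4 groups of a table together, with Benjamini-Hochberg adjustment over all genes; called means an adjusted p under 0.05. Changes with MPP+ were compared between tables over 24 libraries and shared identifiers. For named genes the rule took up to 5 higher and 5 lower called members per comparison whose groups do not overlap and whose higher mean reaches 5 TPM (up to 3 and 3 for the wider list). Gene locations, GC content and overlaps came from GENCODE 29 (GRCh38), promoters from RefSeq (GRCh38.p14). The code was tested on simulated data. The members and lists were chosen with earlier results of these data known. Alternatives were scaling by median of ratios, a filter at 5 TPM or none, a pseudocount of 0.1, removal of each library's GC trend, a replicate block, only the 2 groups, and leaving out each library.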

Additional observations from a re-analysis of the deposited data

Results flagged for a closer look

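For 9 members the change of an arm differed between the treated and the untreated table by the test of the difference itself. With overexpression it was more positive with MPP+ for SCG3 (by 1.07 on the log2 scale), CPLX1 (0.91), CHGA (0.88), UNC13A (0.75), CHGB (0.69) and VAMP2 (0.66). CHGB lost this call with median-of-ratios scaling, a pseudocount of 0.1 or 1 library left out. SCG3, UNC13A and CHGB were below 1 TPM in every untreated library and were tested only because treated groups were high. The change was more negative for SCG5 (-0.87) and RAB3A (-0.82). With knockdown the change was more negative with MPP+ for SYP (-0.62).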

How the results depend on the processing

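Over the 62 called member values, the sign and the call were kept in 40 with the GC trend removed (17 ended, 5 reversed), in 47 with median-of-ratios scaling, 47 with no filter, 59 with a pseudocount of 0.1, 61 with a replicate block and all 36 that a filter of 5 TPM tested; the fit of 2 groups kept 45 of 52, and leaving out a library 359 of 426. Reversed log2 changes with the GC trend removed were SYT1 at 0.11 in untreated knockdown, -0.0694 in untreated overexpression and -0.16 in overexpression with MPP+, CLTB at 0.0285 in untreated overexpression and SCG3 at 0.0887 between the treated controls; median-of-ratios scaling took VAMP2 to -0.00135 in overexpression with MPP+. The causes were not tested. Counts of members higher and lower moved as follows. In untreated knockdown (2 and 2) they were 0 and 0 with no filter and with only the 2 groups, 7 and 0 with median-of-ratios scaling, 1 and 0 with the GC trend removed, 1 higher with a pseudocount of 0.1, 1 lower with a filter of 5 TPM, and 0 to 4 and 0 to 3 leaving out a library. In untreated overexpression (2 and 6), 3 were lower with no filter, 1 higher with a filter of 5 TPM, 10 lower with median-of-ratios scaling, 1 and 1 with the GC trend removed, and 2 to 4 and 1 to 8 leaving out a library. A filter of 5 TPM, which tests fewer members, left 3 lower in knockdown with MPP+ (7), 3 higher in overexpression with MPP+ (9), 4 lower between treated controls (12), 3 lower for the knockdown difference (1) and 3 higher for the overexpression difference (6). Median-of-ratios scaling gave 5 higher in overexpression with MPP+, 5 and 4 between treated controls (1 and 12), and 2 lower for the knockdown difference. With the GC trend removed, 2 were lower between untreated controls (0), 5 lower between treated controls, 2 lower for the knockdown difference and 4 lower for the overexpression difference (2). Between treated controls 0 were higher with a pseudocount of 0.1, no filter or only the 2 groups, and 0 to 1 leaving out a library. Leaving out a library gave 0 to 3 lower between untreated controls and 1 to 4 lower for the knockdown difference.

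The replicate block, which treats libraries of one number as a pair, gave 4 members higher in untreated knockdown, 5 lower between untreated controls and 2 lower for the knockdown difference, and ended 1 call, SCG3 between the treated controls. Deviations of same-numbered libraries correlated at -0.0729 to 0.211. Over all genes, the block raised the calls between untreated controls from 29 higher and 160 lower to 165 and 1771. In knockdown with MPP+ it lowered them, from 1616 and 3308 to 1531 and 3073. The labels give only a number, so whether same-numbered libraries are pairs is not known.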

Other observations

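Genes of the REST and CREB machinery, 15 in all, were read beside the vesicle genes. REST was called higher with overexpression in untreated libraries (log2 change 0.90 ± 0.20) and with MPP+ (0.76 ± 0.12), and lower with knockdown in untreated libraries (-0.59 ± 0.20). With MPP+ its change in knockdown was -0.20 ± 0.12 and was not called. HDAC2, a deacetylase of REST complexes, was higher with overexpression by 1.11 untreated and 1.09 with MPP+. ATF1, a CREB relative, was higher by 0.95 and 1.38, while CREB1 stood at -0.36 ± 0.22 with MPP+ and was not called. Over the 15 genes, 8 were higher and 3 lower in overexpression with MPP+, beside 46.7% and 14.2% of all genes. The lowest log2 change was -0.80. In untreated overexpression 6 were higher and 2 lower, beside 33.5% and 14.7%, down to -0.44. Knockdown gave 2 higher and 3 lower both untreated (8.64% and 25.6% of all genes) and with MPP+ (10.8% and 22.2%). Transcript GC content was 51.9% for REST, 41.4% for HDAC2 and 48.3% for ATF1. The alternatives were read for members only, so these changes were not checked with the GC trend removed.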
